A study of Sus scrofa with 35 samples.

Results

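The pyruvate dehydrogenase complex was described in pig longissimus dorsi, a back muscle, through the transcripts of its subunits. The members were all non-control probes whose gene name in the scanner files was PDHA1, PDHB, DLAT, DLD or PDHX, which makes 5 genes of the 10922 gene names on the array. They were measured by 21 probes: 5 for PDHA1, 2 for PDHB, 3 for DLAT, 10 for DLD and 1 for PDHX. All 21 passed the filter on dim probes, none was saturated, and 20 were well above background on all 35 arrays, the exception being DLD probe 10 on 32. Probes of a gene are numbered here from the highest to the lowest mean level, and probe 1 is called the lead probe.

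The animals were castrated male growing pigs from Creole, from Large White or from the F1 between these breeds. They were held in thermoneutral (TN) or heat stress (HS) conditions, and each array carried the muscle RNA of 1 pig. There were 6 arrays in each of the groups Creole TN, Creole HS, F1 TN, Large White TN and Large White HS, and 5 in F1 HS. The temperature labels read 24 °C in TN and 30 °C in HS, whereas the growth protocol speaks of 5 days at 32 °C. Per the study's methods the pigs came from blocks of littermates, and some HS pigs were slaughtered before the full 5 days. The labels do not tell which. The pens of the TN group were slaughtered first, before the room was heated, so the effects of temperature, pen, age and day of slaughter cannot be told apart. The study also reports that the pigs ate less in the heat. No TN group was fed to match, so the effect of feed intake cannot be told apart either.

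The complex sits in the mitochondrial matrix and turns pyruvate, the end product of glycolysis, into acetyl-CoA for the tricarboxylic acid (TCA) cycle. Its E1 component, built from PDHA1 and PDHB, decarboxylates pyruvate with thiamine pyrophosphate. DLAT, the E2 core, passes the acetyl group to coenzyme A on a lipoyl arm, PDHX anchors E3 to the core, and DLD, the E3 component, reoxidises the lipoyl group and serves the 2-oxoglutarate, branched-chain keto acid and glycine cleavage complexes as well. In muscle, pyruvate dehydrogenase kinases switch the complex off by phosphorylating PDHA1, and phosphatases switch it on again.

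The probes on which the results turn are shown as the scanner files give them, 5′ to 3′. PDHA1 probes 2, 3 and 4 lie on 1 porcine mRNA record, where they start at bases 1128, 662 and 739. They are shown because they moved with temperature. Capitals mark the codons that open (probe 3) and close (probe 4) the thiamine pyrophosphate binding motif, found by a script in a forward reading frame without a stop. PDHA1 probe 1, annotated with a transcript cluster rather than with that record, is given by its first 30 bases because its level parted from that of these 3 probes. DLD probes 7 and 8, which start at bases 916 and 229 of the DLD mRNA, are shown because probe 8 differed from the other DLD probes between breeds and probe 7 had the lowest adjusted p of the DLD probes in the breed comparison, without passing it.
PDHA1 probe 2: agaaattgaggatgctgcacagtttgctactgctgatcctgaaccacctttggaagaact
PDHA1 probe 3: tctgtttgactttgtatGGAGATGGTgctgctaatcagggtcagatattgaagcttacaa
PDHA1 probe 4: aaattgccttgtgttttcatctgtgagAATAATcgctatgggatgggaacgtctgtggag
PDHA1 probe 1 (first 30 bases): gctgagctcgctgtagtctctgtaatgatg
DLD probe 7: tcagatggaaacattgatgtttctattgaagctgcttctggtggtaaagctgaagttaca
DLD probe 8: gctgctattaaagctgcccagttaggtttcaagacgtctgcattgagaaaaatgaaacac

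No member probe shared 17 or more bases in a row with a probe of another gene name, on either strand. DLD probe 7 shared 16 with a probe that carries no gene symbol. DLD probes 2 and 4 shared 33 bases with each other, and DLD probes 1 and 5 shared 17, so these pairs are not separate readings of the transcript. The files give no genome position or exon for the probes, and none is printed.

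The share of probes well above background lay between 58.4% and 72.8% on TN arrays and between 63.9% and 75.9% on HS arrays. Array brightness, taken as the upper quartile of unnormalised log2 intensity, was 8.73 to 9.40 in TN and 8.88 to 9.62 in HS. All 12 skeletal muscle fibre markers were measured, the dimmest at a mean log2 intensity of 13.16. Of 12 leukocyte markers 10 were measured, each well above background on at least 34 arrays, so none was at 0. Their mean log2 intensity was 0.72 higher in HS, where it ran from 9.36 to 11.02 against 7.99 to 10.7 in TN, and 5 of the 10 were called higher. Of the other lists, adipocyte markers (6 of 6 measured) differed by 0.16 with 0 called, endothelial markers (5 of 5) by -0.18 with 1 called lower, red blood cell markers (2 of 3) by -0.71 with 1 called lower and nerve markers (5 of 5) by -0.01 with 0 called. The muscle fibre markers differed by -0.11, with 1 called higher and 2 called lower.

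The first question was how the subunits responded to heat across breeds, and a model of breed and temperature was fitted to the 35 arrays. Transcripts of all 5 subunits were lower in HS, and 17 of 21 probes passed an adjusted p below 0.05 (limma, Benjamini-Hochberg over 41517 probes), all 17 downwards. Over all probes 8.30% were called lower, and 30.7% had an unadjusted p below 0.05, against the same 17 of the 21. The median log2 difference of the 21 probes was -0.38, against -0.02 over all probes, and all 21 differences were below 0, as were 56.1% over all probes. On the linear scale the HS level of the 17 called probes was 0.673 to 0.885 of the TN level. In bulk tissue, fewer cells of a type and less RNA per cell cannot be told apart.

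**Figure D1:**
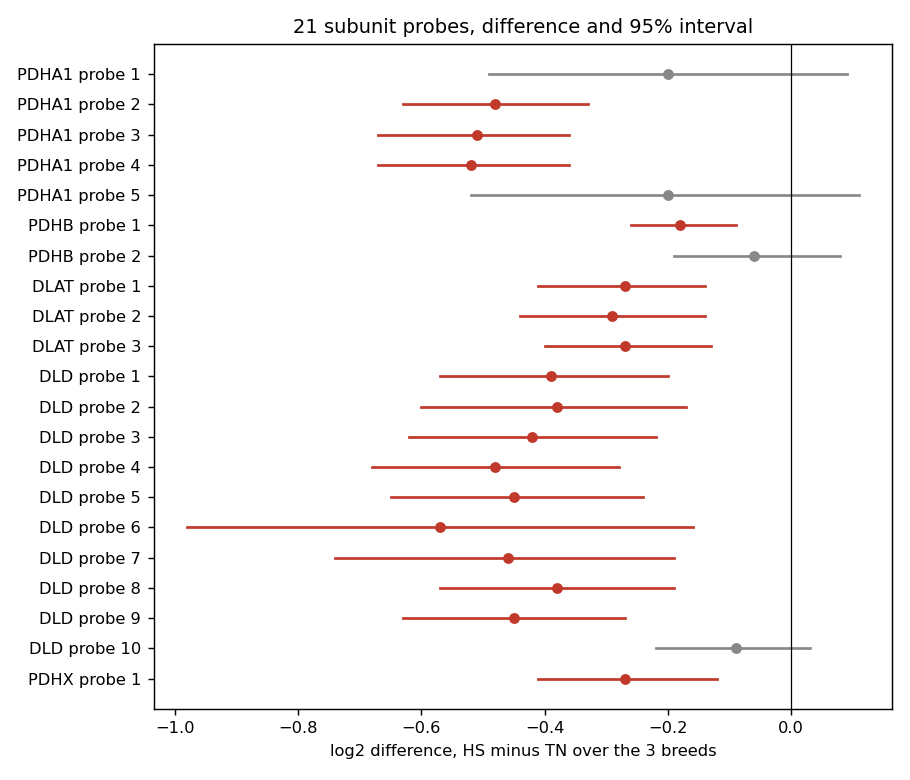
Log2 difference between HS and TN over the 3 breeds (x axis) for the 21 subunit probes (y axis), with 95% intervals from limma; red probes passed an adjusted p of 0.05 and grey ones did not. All 21 points lie below 0, and 4 probes are grey: PDHA1 probes 1 and 5, PDHB probe 2 and DLD probe 10.

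PDHA1, the catalytic alpha subunit of E1 and the target of the kinases, was called lower on 3 of its 5 probes. PDHA1 probe 2 had a log2 intensity of 12.12 to 12.92 (median 12.38) on TN arrays and of 11.57 to 12.38 (median 11.92) on HS arrays. The ranges overlapped, but 14 of 17 HS arrays lay below every TN array. Its log2 difference was -0.48 (SE 0.07, adjusted p = 0.000136), which means that it fell by 28.5%. PDHA1 probe 3 fell by 0.51 (SE 0.08, adjusted p = 0.000115) and probe 4 by 0.52 (SE 0.08, adjusted p = 0.000103). On probes 3 and 4, 17 of 17 HS arrays lay below the TN mean of their breed. These were the largest falls in the complex relative to their errors.

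PDHA1 probes 1 and 5 did not pass the test. The level of probe 1 ran from 13.15 to 14.99 (median 14.53) in TN and from 13.23 to 14.61 (median 14.26) in HS, a log2 difference of -0.20 (95% interval -0.49 to 0.09, adjusted p = 0.367). The spread between TN arrays, with an SD of 0.56, was more than that of probe 2, with an SD of 0.24. Probe 5, annotated with a record that is not porcine, gave -0.20 (95% interval -0.52 to 0.11, adjusted p = 0.396). On 8 arrays, described below, probe 1 was low against probe 2: 4 were F1 TN, 2 Large White TN and 2 F1 HS. Within Creole, which held 0 of them, probes 1 and 5 gave -0.42 (SE 0.25) and -0.47 (SE 0.26), and probe 2 gave -0.43. Within F1 probes 1 and 5 gave -0.11 and 0.03, and within Large White -0.05 and -0.15. The part of these arrays in the result was not tested. The difference between probes did not pass its own test: probe 1 minus the mean of the other 4 gave 0.23 (SE 0.12, adjusted p = 0.329 over 17514 probes of genes with several probes).

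PDHB, the beta subunit of E1, changed least of the called subunits. Its lead probe had a log2 intensity of 13.87 to 14.31 (median 14.15) in TN and of 13.78 to 14.16 (median 13.98) in HS. The HS arrays overlapped the TN arrays widely, yet 16 of 17 lay below the TN mean of their breed. The difference was -0.18 (SE 0.04, adjusted p = 0.00494), which means that it fell by 11.5%. PDHB probe 2, annotated with a record that is not porcine, gave -0.06 (95% interval -0.19 to 0.08, adjusted p = 0.622). It was dim, with a mean log2 intensity of 6.37 against 14.05 for the lead probe.

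DLAT, the acetyltransferase core, was called lower on all 3 probes. On the lead probe TN arrays lay between 11.96 and 12.91 (median 12.35) and HS arrays between 11.82 and 12.42 (median 12.05). The ranges overlapped, and 8 TN arrays were above every HS array. The log2 difference was -0.27 (SE 0.07, adjusted p = 0.00555). DLAT probes 2 and 3 gave -0.29 and -0.27, so the 3 readings were within 1 standard error of each other.

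PDHX, which tethers E3 to the core, had 1 probe. Its log2 intensity ran from 8.0 to 8.61 (median 8.27) in TN and from 7.63 to 8.55 (median 8.03) in HS. Of 17 HS arrays 15 were below the TN mean of their breed, with 7 below every TN array. The difference was -0.27 (SE 0.07, adjusted p = 0.0107), which means that it fell by 16.8%.

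DLD, the shared dihydrolipoamide dehydrogenase, was called lower on 9 of its 10 probes, by 0.38 to 0.57 on the log2 scale. The lead probe ran from 12.90 to 13.64 (median 13.34) in TN and from 11.84 to 13.32 (median 12.96) in HS, a difference of -0.39 (SE 0.09, adjusted p = 0.00407). The lowest HS value came from 1 array, and the ranges overlapped. DLD probe 4 gave the smallest adjusted p after probe 9, with -0.48 (SE 0.10, adjusted p = 0.00122). DLD probe 10, the dimmest, gave -0.09 (95% interval -0.22 to 0.03, adjusted p = 0.324). Set against the other 9 probes it differed by 0.35 (SE 0.10), with an adjusted p of 0.0572. No member probe passed this test of its temperature response against the others of its gene. Of all such probes 2.52% passed it and 1.28% did so upwards. On the mean of all probes of a gene, PDHA1, DLAT, DLD and PDHX were called lower, at -0.38, -0.28, -0.41 and -0.27, and PDHB gave -0.12 (adjusted p = 0.0823), where 7.79% of all such means were called lower.

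The array with the lowest DLD values was Large White HS replicate 5, lowest of its group on 9 of the 10 DLD probes. DLD probe 6 read 6.98 there against 9.44 on the next lowest array of the group. On DLD probe 1 it read 11.84 against 12.52, and on probe 8 it read 8.76, level with the next. Its difference from the median of the other 5 arrays thus ran from -0.20 on probe 10 to -3.05 on probe 6. Without this array the HS difference of DLD probe 6 was -0.39 in place of -0.57. Its adjusted p ran from 0.0124 to 0.073 as each array was left out in turn, and it passed the threshold in 11 of 35 such fits.

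The HS and TN arrays were spread over 5 slides, 4 of them with 4 TN and 4 HS arrays. Within slides, after subtraction of breed means, 21, 15, 21 and 20 of the 21 probes were lower in HS on slides 1 to 4, with median log2 differences of -0.49, -0.06, -0.65 and -0.26. Slide 5 held 2 TN and 1 HS arrays and gave 18 of 21 with a median of -0.47. With slide as a fixed block 17 member probes were called.

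Markers of other cells moved with the same contrast, and fewer subunit probes were called once they entered the model. When the leukocyte marker mean of each array entered the model, 3 of 21 probes remained called, PDHA1 probes 2, 3 and 4, at -0.38, -0.36 and -0.33 (adjusted p = 0.00853, 0.00803 and 0.00645). Over all probes 4.95% were then called, against 16.0% without the covariate. With the connective tissue marker mean 10 were called and the median of the 21 was -0.34, where 4.37% of all probes were called. With the brightness of the array 5 were called and the median was -0.20, where 5.04% of all probes were called. The median with the leukocyte markers was -0.17. An unadjusted p below 0.05 in limma was reached by 12 of the 21 with the leukocyte markers, 16 with brightness and 17 with the connective tissue markers. The share of all probes below it was not computed for these models. Scaling of the arrays to the spike-in controls left 11 called, where 11.3% of all probes were called and 1.51% called lower. The 6 that lost their call were PDHB probe 1, DLAT probes 2 and 3, DLD probes 6 and 7 and PDHX, at -0.13, -0.13, -0.12, -0.43, -0.32 and -0.13. PDHB probe 1 gave -0.30 with 75th percentile scaling, and DLAT probe 1 gave -0.16 with spike-in scaling, both called. Connective tissue markers (7 of 7 measured) were higher by 0.23 on average in HS, with 2 called, at 11.3 to 12.77 in TN and 12.24 to 12.86 in HS. Since these covariates differed between HS and TN, the part of other cells in the result was not tested.

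**Figure D2:**
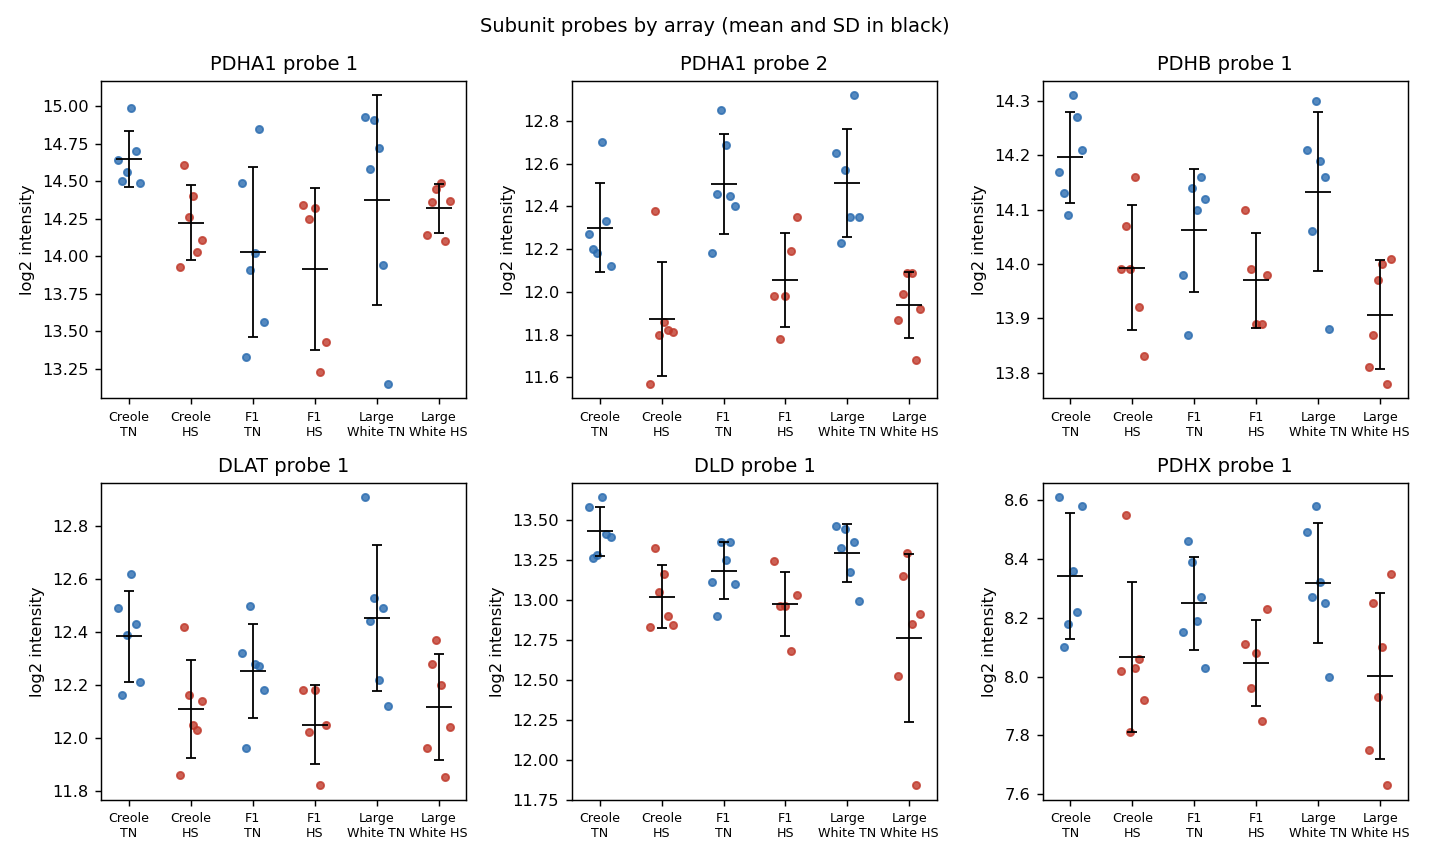
Log2 intensity (y axis) on each array in the 6 breed by temperature groups (x axis) for the lead probe of each subunit and PDHA1 probe 2; points are arrays, black bars the group mean and SD. Every HS mean lies below the TN mean of its breed in all 6 panels, and PDHA1 probe 1 is widely spread in both F1 groups and in Large White TN.

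The level of each lead probe was ordered over the 6 groups. For PDHB, DLAT, DLD and PDHX the 3 TN groups came first and the 3 HS groups after them. PDHB ran from 14.2 in Creole TN to 13.91 in Large White HS, and DLD from 13.43 to 12.76 in the same groups. For PDHX the order ran from 8.34 in Creole TN to 8.0 in Large White HS, and for DLAT from 12.45 in Large White TN to 12.05 in F1 HS. PDHA1 probe 1 went from 14.65 in Creole TN to 13.91 in F1 HS, with F1 TN below both HS groups of the parental breeds. In each of the 5 orders, every pair of neighbours differed by less than the pooled SD within groups.

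Within breeds the differences mostly had the same sign, but few probes passed alone. Of 21 probes, 19 were lower in HS in all 3 breeds, against 27.2% of all probes. In Creole 21 were lower (median -0.42), as were 57.8% of all probes. Of these, 3 were called, PDHA1 probes 3 and 4 and DLD probe 9, where 1.91% of all probes were called and 0.874% called lower. In Large White 20 were lower (median -0.51, against 52.4% of all probes) and 0 called, with 16 at an unadjusted p below 0.05 in limma, where 16.6% of all probes were below it and 0.00482% were called. In F1 19 were lower (median -0.21, against 52.4% of all probes) and 0 called, with 4 at an unadjusted p below 0.05 in limma, where 8.30% of all probes were below it and 0.00482% were called. These counts rested on single arrays. As arrays were left out 1 at a time, the Creole count ran from 0, without any 1 of 9 of the 12 Creole arrays, to 6, without Creole HS replicate 2 or Large White HS replicate 5. The Large White count ran from 0 to 9, with 9 without Large White TN replicate 6 and 5 without Large White HS replicate 3. With slide as a fixed block the counts were 0 in Creole and 4 in Large White. For these alternatives within breeds the shares over all probes were not computed.

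The breeds were not shown to differ in their response. The breed by temperature interaction called 0 of 21 probes (limma F-test, smallest adjusted p = 0.963), with 0 at an unadjusted p below 0.05, where 3.84% of all probes were below it and 0 were called. The largest difference within a breed was that of DLD probe 6 in Large White, -0.97 (SE 0.34, adjusted p = 0.157), against -0.47 (SE 0.34) in Creole and -0.24 (SE 0.36) in F1. It rested on 1 array: without Large White HS replicate 5 the group means differed by -0.44, close to the Creole value. For PDHA1 probe 2 the 3 breeds gave -0.43 in Creole, -0.45 in F1 and -0.57 in Large White, each with an SE of 0.13 or 0.14.

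**Figure D3:**
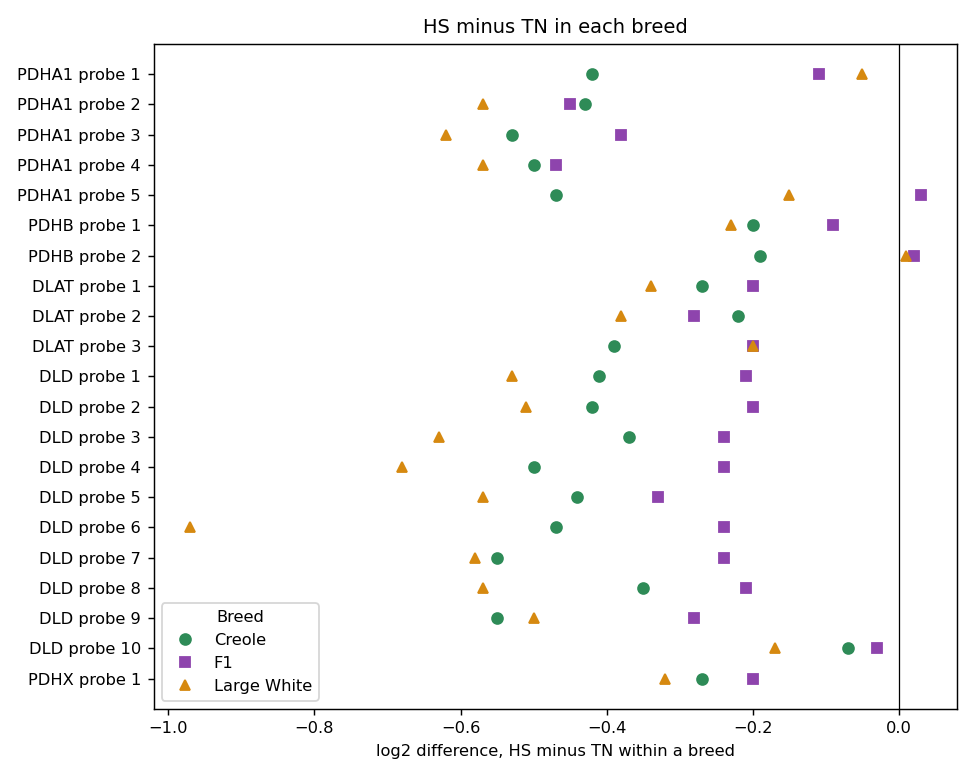
Log2 difference between HS and TN (x axis) for each subunit probe (y axis) within Creole, F1 and Large White, each from 5 or 6 arrays per condition. Most symbols lie left of 0, the furthest being DLD probe 6 in Large White at -0.97, or -0.44 without Large White HS replicate 5.

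To ask whether the breeds differed in their level of the complex, they were compared over both temperatures. No subunit probe passed the test between Creole and Large White: 0 of 21 were called (limma), with 6 at an unadjusted p below 0.05, all 6 of DLD, where 15.4% of all probes were below it and 3.64% were called. Of the 21 differences 6 were below 0, against 47.2% of all probes. DLD probe 6 had the largest difference. Its log2 intensity on Creole arrays was 0.72 higher than on Large White arrays (SE 0.24, 95% interval 0.22 to 1.21, adjusted p = 0.099). DLD probe 7 was 0.50 higher (SE 0.16, adjusted p = 0.0847). On both, 12 of 12 Creole arrays lay above the Large White mean. Without Large White HS replicate 5, the difference of DLD probe 6 was 0.45 with an adjusted p of 0.0387, and without Large White HS replicate 2 that of DLD probe 7 was 0.58 with an adjusted p of 0.0294. With arrays weighted by quality, DLD probes 3 and 6 were called, at 0.36 and 0.61. The share of all probes called between these breeds was not computed with weights. Between HS and TN the weights raised that share from 16.0% to 22.1%.

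DLD probe 8 went the other way. Its difference between Creole and Large White was -0.15 (95% interval -0.37 to 0.08, adjusted p = 0.594), while 9 of 10 DLD probes were above 0. Set against the mean of the other DLD probes on the same array, probe 8 was 0.46 lower in Creole than in Large White, at a log2 difference of -0.46 (SE 0.09, adjusted p = 0.00245). It was the only member probe of 20 called in this test, where 2.76% of all 17514 probes were called. Probe 8 minus the others had means of -1.77 in Creole TN and -1.69 in Creole HS, against -1.27 in both Large White groups, and -1.63 and -1.61 in F1 TN and HS. The Large White HS arrays ran from -1.67 to -0.49 and the Creole HS arrays from -1.80 to -1.58, so the groups overlapped. The difference lay between -0.50 and -0.39 and stayed called as each array was left out, with adjusted p from 0.000976 to 0.00527. DLD probe 6 minus the other probes gave 0.50 (SE 0.16, adjusted p = 0.108) and DLD probe 7 gave 0.26 (SE 0.09, adjusted p = 0.14).

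F1 pigs were compared with Large White, with Creole and with the midpoint of both. In each of the 3, 0 of 21 probes were called (limma), with 3, 3 and 2 at an unadjusted p below 0.05, where 10.5%, 8.88% and 7.35% of all probes were below it and 0.525%, 0.477% and 0.246% were called. Of the 21 differences 8, 17 and 13 were below 0 in these comparisons, against 49.8%, 52.0% and 51.5% of all probes. Against the midpoint 0.0578% of all probes were called lower. Both probes below 0.05 against the midpoint were of PDHA1. PDHA1 probe 1 was 0.42 lower in F1 than midway between its parents, at -0.42 (SE 0.16, adjusted p = 0.43), and probe 5 gave -0.43 (SE 0.17, adjusted p = 0.489). PDHA1 probes 2, 3 and 4 gave 0.12, 0.11 and 0.10. A test of probe 1 against the other PDHA1 probes, added after the data were seen, gave -0.40 (SE 0.12, adjusted p = 0.266), where 0.337% of all such probes were called.

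The PDHA1 probes fell into a pair and a trio that did not move together on every array. The difference between PDHA1 probe 1 and probe 2 on an array took values in 2 separate ranges: 0.80 to 1.33 on 8 arrays and 2.21 to 2.54 on 27. The gap of 0.88 between them was larger than any other gap between neighbouring arrays, the next being 0.17. The same 8 arrays were lowest for probe 1 minus probe 3 and for probe 1 minus probe 4. On probe 5 minus probe 2 they lay between -6.37 and -6.00, and the other 27 between -5.26 and -4.31.

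Of the 8 arrays, 4 were F1 TN, 2 F1 HS and 2 Large White TN, that is 6 of 11 F1 arrays, 2 of 12 Large White arrays and 0 of 12 Creole arrays. They lay on slides 2 to 5, with 1, 3, 2 and 2 arrays. Their grouping came from the measured values, so no test was made between them and the rest. Within the 27 arrays probes 1 and 2 had a Pearson r of 0.969, within the 8 arrays 0.888. Since the sets were cut on the difference between these 2 probes, a high r within each set was largely built in. Both r are descriptions over arrays that share scaling and both conditions, and nothing is concluded from them. By contrast, probe 1 minus probe 5 lay between 6.59 and 7.55 on all 35 arrays with no such break, and probe 2 minus probe 3 between 1.32 and 1.68.

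**Figure D4:**
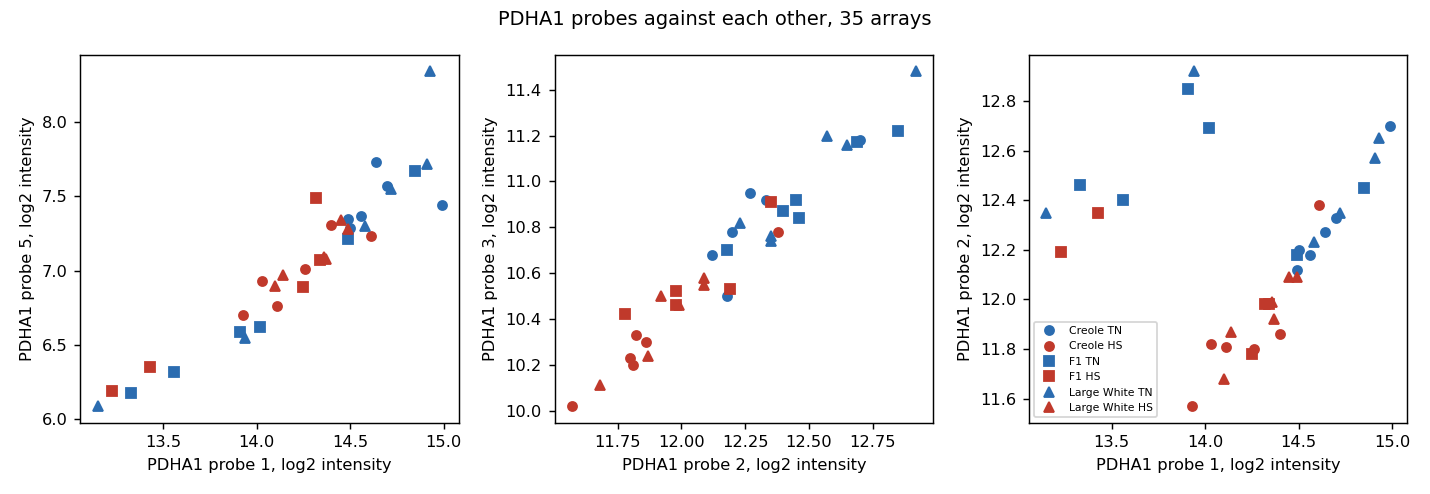
Log2 intensity of PDHA1 probes plotted against each other on 35 arrays: probe 5 against probe 1, probe 3 against probe 2, and probe 2 against probe 1; colour gives the condition and shape the breed. In the third panel 8 arrays, F1 or Large White, lie apart from the line formed by the other 27.

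DLAT and DLD probes moved together more evenly. Within groups, the 3 pairs of DLAT probes had r of 0.742 to 0.786. The 45 pairs of DLD probes had a median r of 0.831 and a range of 0.19 to 0.956, and the pair of PDHB probes had 0.212. These values are descriptions over 35 arrays that share RNA input and scaling.

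Subunits were then compared with each other across the 35 arrays, by lead probe and with group means subtracted. The family held 15 relations, with permutation p-values from 100000 resamples within groups, two-sided, adjusted over the 15. DLAT and DLD were closest, with Pearson r = 0.747 (adjusted permutation p = 5e-05) and Spearman rho = 0.832 (adjusted permutation p = 0.00015). Without the 2 arrays farthest from the median of DLAT, r was 0.771. PDHB and DLD had r = 0.65 (adjusted permutation p = 5e-05) and rho = 0.747 (adjusted permutation p = 0.00015), with r = 0.617 without the 2 farthest arrays. The raw p of these r was 1e-05, the smallest that the resamples can give. All relations of the family are descriptive, as the arrays share RNA input and scaling. Genes outside the complex had higher r over the same arrays, such as IPO13 with DLAT (0.882) and MYOZ3 with DLD (0.886). Whether the relations are particular to the complex was not tested.

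The other 4 pairs without PDHA1 were weaker. DLD and PDHX had r = 0.597 (permutation p = 0.00096, adjusted 0.0024) and rho = 0.626 (permutation p = 0.00045, adjusted 0.00135). PDHB and DLAT had r = 0.515 (permutation p = 0.00721, adjusted 0.0154) and rho = 0.487 (permutation p = 0.00812, adjusted 0.0152). DLAT with PDHX and PDHB with PDHX had r of 0.462 and 0.442 (permutation p = 0.0117 and 0.0153, adjusted 0.0219 and 0.0256), with rho of 0.414 and 0.496 (permutation p = 0.0254 and 0.00627, adjusted 0.0423 and 0.0134). Without the 2 farthest arrays these 4 r were 0.641, 0.375, 0.39 and 0.485. With PDK4, a kinase known to rise in muscle on fasting, PDHB, DLAT, DLD and PDHX had r of 0.205, 0.0267, 0.0713 and 0.128 (smallest adjusted permutation p = 0.398) and rho of 0.222, 0.0104, 0.0919 and 0.16 (smallest adjusted permutation p = 0.293).

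For the PDHA1 lead probe, which makes up the other 5 relations of the family, no r is given, since its arrays fell into 2 separate sets that were defined by its own values.

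The genes whose lead probes were most like those of the subunits, by Pearson r over the 35 arrays within groups, were for PDHB ETFA, SDHB and NDUFS3 (r of 0.831, 0.829 and 0.822), which serve fatty acid oxidation, succinate oxidation and complex I. For DLAT they were BCKDHA, the E1 alpha subunit of the branched-chain complex, IPO13 and the complex I subunit NDUFS1 (0.916, 0.882 and 0.869). For DLD they were COQ9, a coenzyme Q synthesis factor, the complex I subunit NDUFA11 and the Z-disc protein MYOZ3 (0.889, 0.887 and 0.886). For PDHX they were SUGP1, SLC16A5 and NRG4 (0.732, 0.731 and 0.718). These are descriptions, over arrays that share RNA input and scaling.

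The genes around the complex were read by the lead probe of each. Of 39 genes on 6 lists, 30 were measured: 15 were called lower in HS, 1 higher and 14 not called, with a median of -0.19. The lists were drawn up with earlier results of these data known. Over all probes 16.0% were called and 8.30% called lower. Of the 16 called genes 12 were called with spike-in scaling, the others being PDK2, DLST, IDH3G and SUCLG1. With the leukocyte markers in the model 2 were called, LDHB and IDH3A, with array brightness 5 and with the connective tissue markers 9, and none of the 16 changed sign.

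Of the 4 kinases that inactivate the complex, 2 were called lower on their lead probe. PDK4 fell by 1.92 on the log2 scale (SE 0.52, adjusted p = 0.0115), with 15 of 17 HS arrays below the TN mean of their breed and all 11 PDK4 probes called. The arrays varied much: the 18 TN arrays had a mean log2 intensity of 14.11 ± 1.69 (SD) and the 17 HS arrays one of 12.2 ± 1.53 (SD). Adjusted for the leukocyte markers PDK4 gave -1.96, with an adjusted p of 0.0555. PDK2 fell by 0.20 (SE 0.07, adjusted p = 0.0452), a call lost in 22 of 35 fits that left out 1 array. PDK1 and PDK3 gave -0.16 and 0.11 (adjusted p = 0.119 and 0.609). PDK1 and PDK2 had 2 kept probes each, and in both genes 1 of the 2 was called lower. Of the phosphatase genes, PDP1, the catalytic subunit, gave 0.18 (SE 0.10, adjusted p = 0.22) and PDPR, its regulator, gave 0.01 (SE 0.16, adjusted p = 0.978).

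Around pyruvate, the lactate dehydrogenase subunits moved apart. LDHB, the heart-type subunit, rose by 0.49 (SE 0.08, adjusted p = 0.000171), on all 13 of its probes. LDHA, the muscle-type subunit, fell by 0.18 (SE 0.05, adjusted p = 0.0137), with 2 of its 3 probes called lower. The LDHA value depended on the scaling, at -0.42 with 75th percentile and -0.33 with median scaling. Pyruvate carboxylase, PC, gave -0.22 (adjusted p = 0.181). Of the lipoylation genes, LIPT1 and NFU1 gave -0.13 and 0.07 (adjusted p = 0.0812 and 0.355).

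The TCA cycle was lower with the complex that feeds it: 10 of 13 measured genes were called lower and 0 higher, with a median of -0.26 against -0.27 for the 5 lead probes of the subunits. IDH3A, an isocitrate dehydrogenase subunit, fell by 0.45 (SE 0.08, adjusted p = 0.000556). SUCLA2, SDHB and CS, the citrate synthase that takes up acetyl-CoA, fell by 0.35, 0.29 and 0.23. SUCLG2, SDHD and FH gave 0.03, -0.06 and -0.07 and did not pass. Of the other enzymes that use DLD, DLST of the 2-oxoglutarate complex and BCKDHA fell by 0.23 and 0.34 (adjusted p = 0.00279 and 0.0112), and with spike-in scaling gave -0.12 and -0.18 (adjusted p = 0.278 and 0.0327), while BCKDHB, DBT and GCSH gave -0.06, -0.05 and 0.02.

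**Figure D5:**
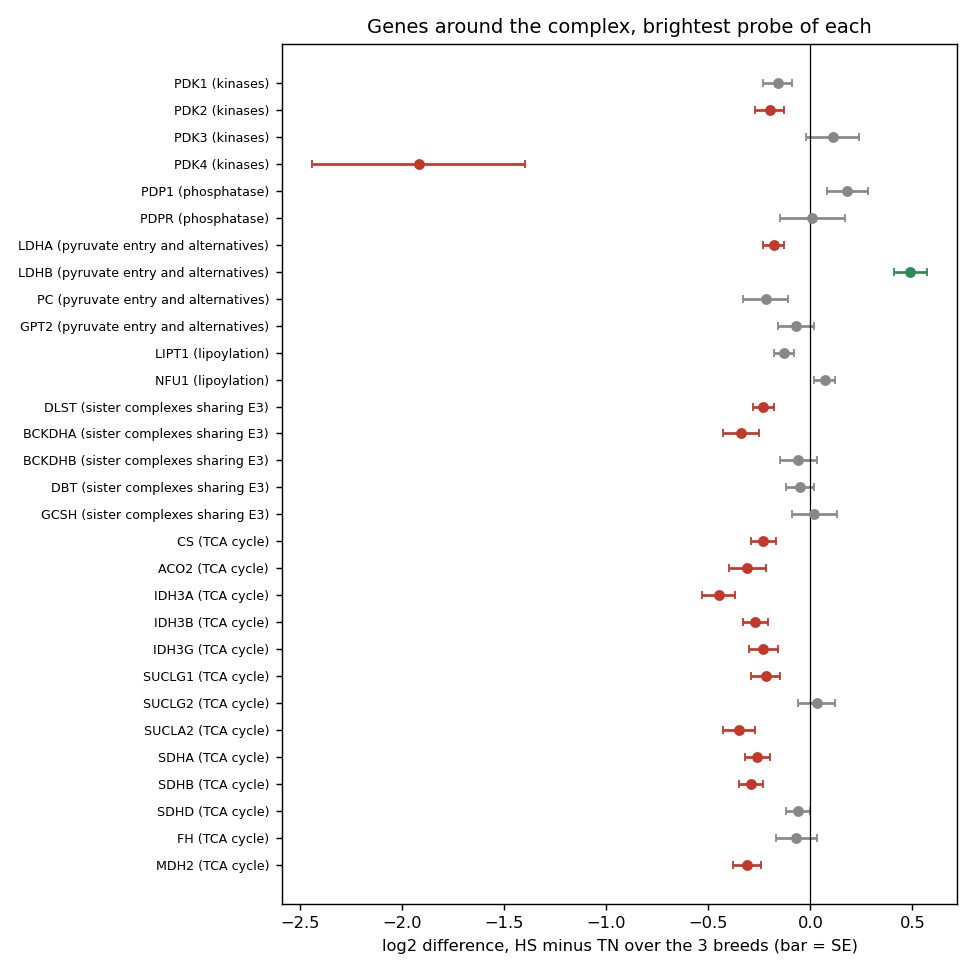
Log2 difference between HS and TN over the 3 breeds (x axis, bars are SE) for 30 genes around the complex, each by its brightest probe; red genes were called lower, green higher and grey not called. PDK4 lies furthest left at -1.92 and LDHB furthest right at 0.49.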

How the data were processed

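RNA from 35 muscle samples was labelled with Cy3 and hybridised to 1-colour Agilent porcine arrays, quantified with Feature Extraction 10.10.1.1 per the submitters' processing notes. Each deposited scanner file gives linear intensity and quality flags for 1 array. The deposited value table holds log2 values of 40649 probes, which the authors quantile-normalised and filtered.

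Here the median intensity of 60306 non-control spots (60305 probes) was quantile-normalised with no background removed and turned to log2. The 105 spots that carried an outlier flag became missing values, and a probe's spots were averaged. A probe stayed in if some group had it well above background on 75% or more of its arrays (41517 probes). The linear models, made in limma 3.58.1 (R 4.3.3), were on breed and temperature, or on 6 group means for effects within breeds, over all 35 arrays, with Benjamini-Hochberg adjustment at 0.05. The study's random terms could not be entered, as the labels do not give them. Probes were named by the gene name in the files. Lists of related genes were PDH kinases, phosphatase, pyruvate entry and alternatives, lipoylation, sister complexes sharing E3 and TCA cycle. PDP2, MPC1, MPC2, LIAS, LIPT2, OGDH, DHTKD1 and SDHC had no probe of that name and were not analysed here, and no GLDC probe passed the filter. A further short list is not reported here. The genes named are the members, the genes on these lists and, for each subunit other than PDHA1, whose arrays split, the 3 genes most like it. Marker lists covered skeletal muscle fibre, leukocytes, connective tissue, adipocytes, endothelium, red blood cells and nerve. Members, lists and tests were chosen with earlier results of these data known. Permutation tests used Python 3.11.15. The fit was tested on simulated data. Replicates are pigs, numbered in the order of deposition. The number of arrays limits the precision. The alternatives were other scalings, background correction, filters, slide blocks, array weights, covariates, the deposited value table and leaving out each array.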

Additional observations from a re-analysis of the deposited data

Results flagged for a closer look

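A single array stood far from the others of its group for 8 of the 126 combinations of probe and group examined, where chance gives about 1 in 20. The gap to the nearest array is given as a share of the range of the group.

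DLD probe 6 was low on Large White HS replicate 5, at a log2 intensity of 6.98 (share 0.649), the array that was lowest of its group on 9 of 10 DLD probes. DLAT probe 2 was low on F1 TN replicate 2, at 10.05 (share 0.754). Creole HS replicate 2 was high on PDHA1 probe 2, at 12.38 (share 0.642), and on PDHX probe 1, at 8.55 (share 0.662). Creole TN replicate 4 was high on PDHA1 probe 2, at 12.7 (share 0.638), and F1 HS replicate 5 on PDHA1 probe 3, at 10.91 (share 0.776). Creole HS replicate 5 was high on DLD probe 10, at 6.14 (share 0.63), and Large White HS replicate 3 on PDHB probe 2, at 6.98 (share 0.632).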

How the results depend on the processing

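The count of 17 subunit probes lower in HS was 16 or 17 under 75th percentile and median scaling, normexp background correction, the deposited value table, no filter on dim probes, the stricter filter, slide as a fixed or random block, array weights and the model without breed, and 16 to 17 as each array was left out. It was 11 with scaling to the spike-in controls, 5 with array brightness, 3 with the leukocyte markers and 10 with the connective tissue markers as a covariate. The cause was not tested. In the alternatives that gave 16 or 17, the share of all probes called lower ran from 4.87% with no filter to 11.5% with array weights. For the fits that left out an array this share was not computed. Spike-in scaling shifted the median of all probes to 0.07 and left 20 of 21 probes below 0. The calls over all probes were 48.2% upwards, against 86.6% with spike-in scaling and 37.5% with 75th percentile scaling. Between Creole and Large White 47.4% of the calls over all probes were upwards, against 36.3% with median and 26% with spike-in scaling. All called probes over HS minus TN were 6654 and 2057 without and with the leukocyte covariate, 2092 with brightness and 1815 with connective tissue markers.

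Within Creole, 3 called probes became 1 with 75th percentile scaling, 1 with median scaling, 1 with no filter, 0 with spike-in scaling and 0 with slide as a fixed block, and ran from 0 to 6 as arrays were left out. Within Large White, 0 became 1 with 75th percentile scaling and 4 with slide as a fixed block, and ran from 0 to 9. Shares over all probes were not computed for these counts within breeds. Creole minus Large White gave 2 with array weights and 0 to 1 as arrays were left out. F1 minus Large White and F1 minus the midpoint gave 1 each with spike-in scaling. For these counts between breeds the shares over all probes were not computed. Of probes set against others of their gene, HS minus TN gave 1 with slide as a fixed block and 0 to 1 as arrays were left out, and Creole minus Large White gave 1 to 2. These last alternatives were chosen after seeing the data, and their shares over all probes were not computed. The mean of all probes of PDHA1 was called lower in HS, at -0.38 (adjusted p = 0.00161), and that of PDHB was not, at -0.12 (adjusted p = 0.0823). No paired analysis was possible because the replicate numbers only follow the order of deposition.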
